A study of Mus musculus with 2 samples.

Results

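Keratins are the intermediate filament proteins of epithelial cells. A filament is built from pairs of a type II and a type I keratin, so each cell needs at least 1 of each type. In the mammary gland, Krt8 (type II) and Krt18 (type I), with Krt7 (type II) and Krt19 (type I), are the keratins of simple, luminal epithelium, while Krt14 (type I) is a keratin of the basal layer that normally pairs with the type II keratin Krt5, and Krt17 (type I) is found in basal cells and in stressed or injured epithelium. The 6 genes described here, Krt7, Krt8, Krt14, Krt17, Krt18 and Krt19, were taken by symbol from the 55357 genes of both count matrices, and all 6 were found. Of these, 4 are called simple keratins below (Krt7, Krt8, Krt18, Krt19) and 2 basal keratins (Krt14, Krt17).

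The cells came from tumours grown in BALB/c mice from 4T1, an established mouse line of triple-negative breast cancer. The AptCD4-LNT library was made from mice given AptCD4-LNT, a product dosed by cell number, in doses of 5, 4 and 3 times 1000000 cells spaced by 3 days, and the Untreated library from tumour-bearing mice given PBS. Tissue was taken at 9 days, and 3 tumours were mixed into each 10x Genomics library. With 1 mixed library per group, no difference between the groups can be set against the spread between animals. No p-value is given, and every interval is an exact 95% interval that covers counting error only.

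Tumour cells were found by markers other than keratins. After filtering, 8627 AptCD4-LNT cells and 18216 Untreated cells remained, and they were clustered on genes that did not include any keratin. Clusters with the epithelial list (Epcam, Cdh1, Cldn3, Cldn4, Cldn7, Spint1, Spint2, Elf3, Esrp1) as their highest-scoring marker list were called epithelial-like. They held 3754 AptCD4-LNT cells (43.5%) and 9516 Untreated cells (52.2%), in 7 clusters. No gene of the list was among the 10 leading genes by fold of any of these clusters. Epcam, the adhesion protein that defines the list, stood at 768 CPM (a gene's UMIs, or unique transcript counts, per 1000000 UMIs summed over the cells) in the AptCD4-LNT library and 1058 CPM in the Untreated library, and none of the 9 markers was at 0. Ptprc, the marker of all blood cells, was at 3.48 and 4.51 CPM. Summed fibroblast markers were at 248 and 98.8 CPM in these cells, against 83204 and 60122 CPM in fibroblast-like cells. The libraries differed in depth, with a median of 17535 UMIs per epithelial-like cell in AptCD4-LNT and 7256 in Untreated, so shares of cells with a keratin were taken after thinning each cell to the same number of UMIs. The libraries shared 42 barcode sequences.

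Krt8 and Krt18 lie next to each other on chromosome 15 and Krt7 lies on the same chromosome, while Krt14, Krt17 and Krt19 lie on chromosome 11, where Krt16 is annotated between Krt14 and Krt17. RefSeq sequence around the annotated start (build GRCm38.p6, 250 bases before to 50 after) was at hand for 3 of the 6 genes. These windows are shown because Krt8 and Krt18 were the pair whose counts went together most closely from cell to cell among simple keratins, as described below, and Krt7 is the other type II member. Capitals mark matches, on either strand, to the TATA box motif TATAAA. They also mark those to the GC box motif, spelled GGGCGG. This build differs from that of the counts, GRCm39, and no coordinate was carried between the builds.
Krt8, chr15:102004293-102004592, minus strand: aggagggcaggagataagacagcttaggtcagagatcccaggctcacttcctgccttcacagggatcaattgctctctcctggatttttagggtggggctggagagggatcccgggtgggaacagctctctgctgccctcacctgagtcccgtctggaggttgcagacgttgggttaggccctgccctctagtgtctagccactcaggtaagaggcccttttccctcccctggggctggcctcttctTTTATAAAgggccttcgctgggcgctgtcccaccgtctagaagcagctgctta
Krt18, chr15:102027966-102028265, plus strand: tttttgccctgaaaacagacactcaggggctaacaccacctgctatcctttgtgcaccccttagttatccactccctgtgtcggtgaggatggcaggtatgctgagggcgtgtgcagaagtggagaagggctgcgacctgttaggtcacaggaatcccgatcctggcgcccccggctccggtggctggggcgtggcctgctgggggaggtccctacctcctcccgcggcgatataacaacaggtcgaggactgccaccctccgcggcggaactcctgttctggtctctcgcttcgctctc
Krt7, chr15:101412153-101412452, plus strand: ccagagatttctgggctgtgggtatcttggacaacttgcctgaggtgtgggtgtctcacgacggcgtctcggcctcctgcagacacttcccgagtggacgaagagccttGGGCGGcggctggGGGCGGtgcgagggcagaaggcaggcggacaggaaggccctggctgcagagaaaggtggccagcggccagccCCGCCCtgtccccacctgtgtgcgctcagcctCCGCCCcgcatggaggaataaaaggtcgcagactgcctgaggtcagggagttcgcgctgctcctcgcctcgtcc

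In the Krt8 window, TATAAA matched once on each strand, and the 2 matches overlap across the annotated start. The Krt7 window held 4 GC boxes, and the Krt18 window held no match to TATAAA or GGGCGG. Neither TGANTCA (the AP-1 site) nor AACNGGTT (the Grainyhead site) matched in any of the 3 windows. Among 32851 windows of the same length, 13.6% held TATAAA, 35.7% GGGCGG, 7.81% TGANTCA and 2.09% AACNGGTT. The GC content was 58% for Krt8, 61.3% for Krt18 and 66.3% for Krt7, against a median of 52.7% over all windows. These matches describe the letters only, and binding was not measured.

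Both libraries were dominated by the simple keratin pair Krt8 and Krt18. Krt18 was at 1807 CPM in AptCD4-LNT and 1682 CPM in Untreated, and Krt8 at 1462 and 1286 CPM. These are levels per UMI, which counts captured transcript ends and was not divided by gene length. Together they made up 42.7% (Krt18) and 34.5% (Krt8) of the 6 genes' UMIs in AptCD4-LNT, and 41.8% and 32.0% in Untreated. Krt7 followed at 507 and 572 CPM. Krt14 reached 286 and 191 CPM, Krt19 96.7 and 148 CPM, and Krt17 72.9 and 141 CPM. The order of the 6 levels was the same in both libraries, with Krt19 and Krt17 close to each other in Untreated. The type I members summed to 2263 and 2162 CPM and the type II members to 1969 and 1858 CPM, a ratio of 1.15 in AptCD4-LNT and 1.16 in Untreated. In all, the 6 keratins were 0.423% of the epithelial-like UMIs in AptCD4-LNT and 0.402% in Untreated.

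Almost no other keratin was present. Of 49 other keratin rows, including the pseudogene Krt8-ps, 23 had no UMI in epithelial-like cells of either library, 42 were below 1 CPM in both, and 2 reached 20 CPM. These were Krt10, a type I keratin of differentiating epidermis, at 22.7 and 26.2 CPM, and Krt16, an injury-induced type I keratin, at 25.1 and 10.8 CPM. Krt5, the usual partner of Krt14, had 0 UMIs in AptCD4-LNT, which allows up to 0.0423 CPM, and 5 UMIs in Untreated. Krt14 had 20310 and 16352 UMIs in the same cells. Trp63, the transcription factor of basal epithelium, was at 2.44 and 1.61 CPM. The type II keratins counted in these cells were mainly Krt8 and Krt7. Counts of close relatives, such as Krt14, Krt16 and Krt17, or Krt8 and Krt8-ps (97 and 109 UMIs), could be split by how reads shared between copies were assigned, which was not tested.

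Between the libraries, Krt17, Krt19 and Krt14 differed more than Krt7, Krt8 and Krt18. Krt17 was 1.94-fold lower in AptCD4-LNT (log2 -0.95, interval -1.002 to -0.91), and Krt19 1.53-fold lower (log2 -0.61, -0.65 to -0.57). Krt14 was higher (log2 0.58, 0.55 to 0.61), just under the 1.5-fold used as a threshold. Krt8 (log2 0.19), Krt18 (0.10) and Krt7 (-0.17) differed less, and the counting intervals of all 6 exclude 0. The 2 basal keratins moved in opposite directions, so that their sum differed little, at 359 and 332 CPM (log2 0.11). Past 1.5-fold were 0 of the 6 keratins on the higher side and 2 on the lower. Over the 16237 genes with at least 30 UMIs, 8.75% (1420) were past 1.5-fold higher and 5.7% (926) lower, a balance that turned to 870 higher and 1094 lower with a marker gate per cell, and the median log2 difference was 0.06, against -0.03 for the 6 keratins. Krt17 was past 1.5-fold lower in all 12 alternative settings tried and Krt19 in 9 of 12. Krt14 passed on the higher side in 3 of 12 and was at log2 0.31 when cells were picked by a gate on single markers instead of clusters. This gate took cells with an Epcam UMI and none of Ptprc or Col1a1, in counts not thinned, so it depends on depth. Col1a1 was at 67.8 CPM in AptCD4-LNT and 25.8 CPM in Untreated epithelial-like cells. The gate can thus keep different parts of the 2 libraries, which was not tested.

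The values over all epithelial-like cells mix clusters that the libraries held in different shares. Clusters are called here by a leading gene. The Lgals7-led cluster held 38.9% of AptCD4-LNT epithelial-like cells and 4.53% of Untreated ones, and the Ibsp-led cluster 9.48% and 38.7%. The Sfn-led cluster, whose 2 leading genes by fold were Krt14 and Krt17 although neither was used to cluster, held 7.14% and 1.65%. Its leading genes also included Acta1, a skeletal muscle actin, and Lars2 and Rn18s-rs5, which can mark RNA quality. Acta1 was at 4.41 CPM in its AptCD4-LNT cells and 150 CPM in its Untreated cells, against at most 1.45 CPM in the other 5 clusters compared below. Rn18s-rs5 was at 6724 and 4556 CPM there, and at 2258 to 4165 CPM in AptCD4-LNT and 1240 to 2380 CPM in Untreated in those 5. The part of these in the keratin differences of this cluster was not tested. The other clusters were led by Cenpf (a mitosis gene, 19.5% and 18.8%), Ndrg1 (a hypoxia-induced gene, 13.2% and 24.8%), Mmp13 (a collagenase, 10.6% and 7.51%) and Ifit3 (an interferon-induced gene, 1.12% and 4.06%). The last had only 42 AptCD4-LNT cells, so levels are compared over the other 6. The Mmp13-led cluster had Mmp9, also an osteoclast marker, among its leading genes, and without it Krt14 differed by log2 0.54, Krt17 by -1.16 and Krt19 by -0.72.

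Krt18 was the most even keratin across these 6 clusters and Krt14 the least even in Untreated. The highest cluster was above the lowest by 1.42-fold in AptCD4-LNT and 1.33-fold in Untreated for Krt18, and by 1.47-fold and 2.40-fold for Krt8. For Krt7 the range was 2.02-fold and 1.999-fold, and for Krt19 3.16-fold and 2.50-fold. It was 3.71-fold and 19.4-fold for Krt14 and 3.97-fold and 11.1-fold for Krt17. Among all genes at 20 CPM or more, 15.7% of 6344 in AptCD4-LNT and 17.2% of 6199 in Untreated ranged by at least 2-fold, with a median range of 1.47-fold and 1.5-fold. Most of those genes could enter the clustering, which the keratins could not, so the 2 shares are not of the same kind.

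**Figure D1:**
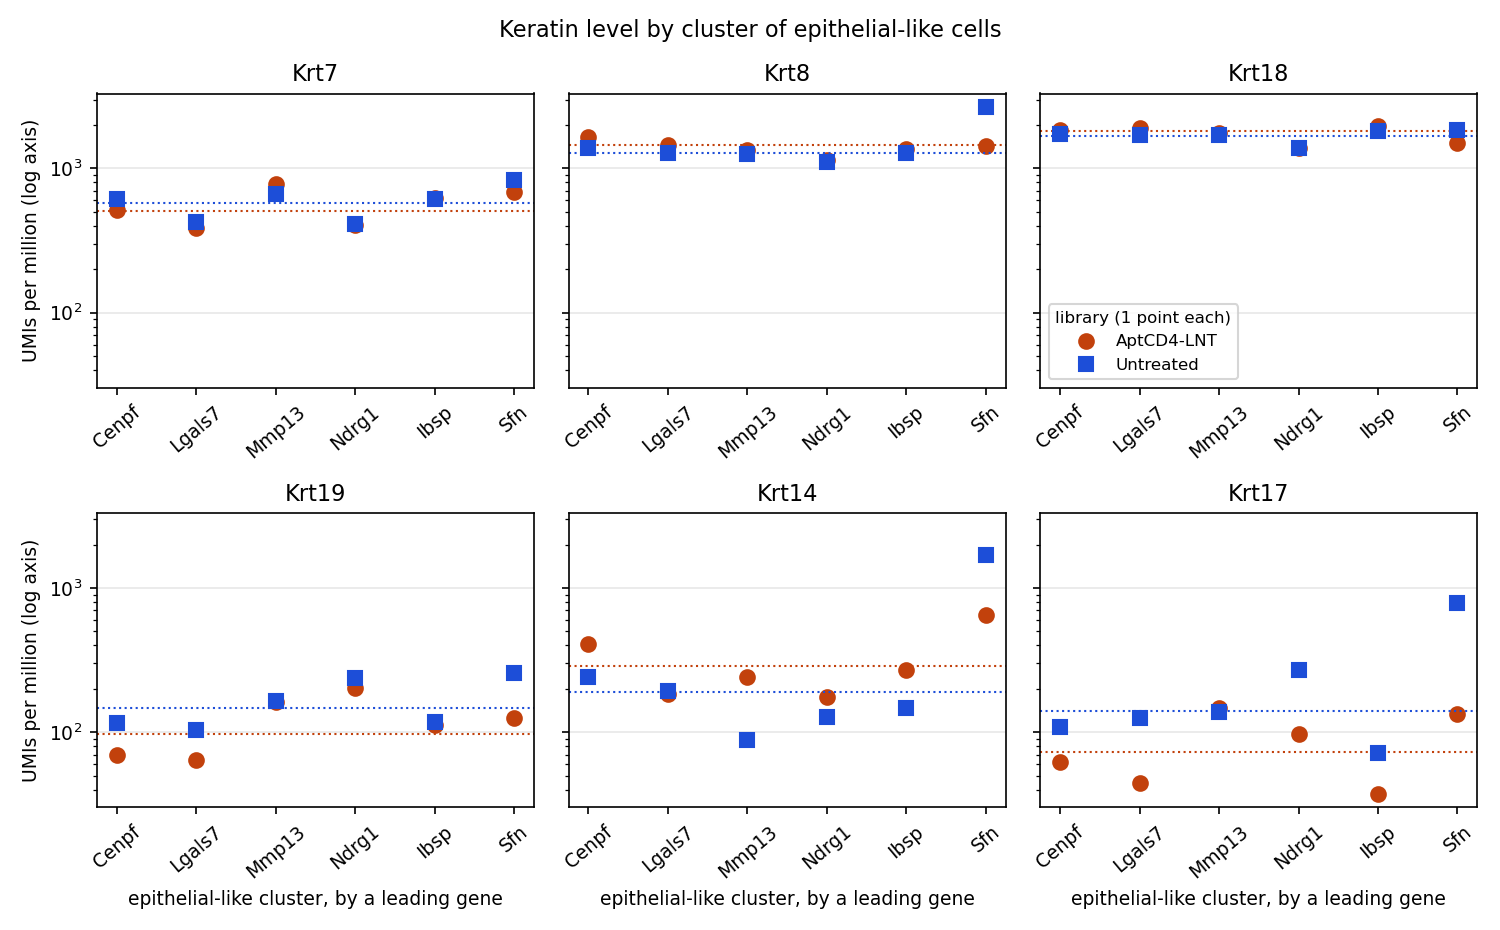
Level of each keratin (CPM, log axis) in 6 epithelial-like clusters named by a leading gene, with 1 point per library and dotted lines at the level over all epithelial-like cells. Krt18 lies between 1388 and 1978 CPM throughout, while Krt14 reaches 1706 CPM in the Untreated cells of the Sfn-led cluster and is at 88.1 CPM in those of the Mmp13-led cluster.

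Krt14 was highest in the Sfn-led cluster of both libraries, at 654 CPM in AptCD4-LNT and 1706 CPM in Untreated. Its lowest levels were 176 CPM in the Ndrg1-led cluster of AptCD4-LNT and 88.1 CPM in the Mmp13-led cluster of Untreated. The difference between the libraries was not of 1 direction: Krt14 was higher in AptCD4-LNT in the Mmp13-led (log2 1.44), Ibsp-led (0.87), Cenpf-led (0.75) and Ndrg1-led (0.47) clusters, near level in the Lgals7-led cluster (-0.06, -0.16 to 0.05), and lower in the Sfn-led cluster (-1.38, -1.47 to -1.30). Giving each of the 6 clusters the same weight brought the overall Krt14 difference to log2 0.35.

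Krt17 was lower in AptCD4-LNT in 5 of the 6 clusters. The widest gap was in the Sfn-led cluster, at 134 CPM against 791 CPM (log2 -2.56), followed by the Lgals7-led cluster at 44.2 against 126 CPM (-1.51) and the Ndrg1-led cluster at 97.0 against 272 CPM (-1.49). In the Mmp13-led cluster it was at 148 and 139 CPM (log2 0.10, -0.03 to 0.22). With equal weight per cluster the Krt17 difference was log2 -1.20. In the 42 AptCD4-LNT cells of the Ifit3-led cluster Krt17 was higher than in Untreated, at 286 against 152 CPM.

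Krt19 was highest in the Ndrg1-led cluster in AptCD4-LNT (202 CPM) and in the Sfn-led (259 CPM) and Ndrg1-led (238 CPM) clusters in Untreated. It was lower in AptCD4-LNT in 6 of 6 clusters, from log2 -0.03 in the Mmp13-led to -1.04 in the Sfn-led cluster, and 2 of those 6 intervals include 0. With equal weight per cluster the difference was log2 -0.47, below the 1.5-fold threshold. Krt7 was highest in the Mmp13-led cluster of AptCD4-LNT (786 CPM) and the Sfn-led cluster of Untreated (828 CPM). Krt8 was higher in AptCD4-LNT in 5 of 6 clusters, and the exception was again the Sfn-led cluster, at 1435 against 2675 CPM (log2 -0.90). For Krt8 the sign over all clusters turned with equal cluster weights, to log2 -0.04.

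Simple keratins were found in nearly every epithelial-like cell, and a basal keratin in 37.5% of AptCD4-LNT and 33.0% of Untreated cells at a fixed depth. Of cells thinned to 3000 UMIs (3645 AptCD4-LNT and 8453 Untreated cells deep enough), 97.0% and 97.1% had Krt18, and 94.9% and 92.7% had Krt8. Krt7 was found in 63.4% and 68.2%, and Krt19 in 21.5% and 30.6%. Krt14 was found in 32.1% of AptCD4-LNT cells (30.6 to 33.6%) and 22.0% of Untreated cells (21.1 to 22.9%), and Krt17 in 11.4% (10.4 to 12.5%) and 18.3% (17.5 to 19.1%). Without thinning, Krt14 was found in 56.3% and 35.1% and Krt17 in 27.1% and 30.6%. The thinned shares of Krt14 and Krt17 lie apart in the same directions as their levels, beyond counting error. At 1000 UMIs, where other cell classes can be set beside them, Krt14 was in 16.8% and 11.2% of epithelial-like cells and in 0.844% and 0.880% of cells of the 8 other classes with at least 50 cells per library, and Krt17 in 4.73% and 9.64% against 0.386% and 0.794%.

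Nearly every cell with a basal keratin also had a simple one. At 3000 UMIs, 99.67% of AptCD4-LNT and 99.72% of Untreated cells had a simple keratin. Near-complete overlap was thus bound to appear, and it does not show how the 2 kinds go together. At 3000 UMIs, 37.4% of AptCD4-LNT cells (35.9 to 39.0%) and 32.9% of Untreated cells (31.9 to 33.9%) had both a simple and a basal keratin. A basal keratin without a simple one was seen in 2 of 3645 and 7 of 8453 cells, and neither kind in 10 and 17 cells. Simple keratins alone were found in 62.2% and 66.8%. Krt8 and Krt18 were in the same cell in 92.4% and 90.4%, both basal keratins in 6.01% and 7.29%, and all 6 keratins in 1.98% and 2.82%. These shares depend on the number of UMIs per cell: cells with both a simple and a basal keratin were 19.1% and 17.5% at 1000 UMIs and 48.7% and 46.9% at 6000. Requiring at least 2 UMIs of each kind gave 19.8% and 14.03%. Of the 3754 and 9516 epithelial-like cells, the depth minimum left out 31 and 134 at 1000 UMIs, 109 and 1063 at 3000, and 204 and 3660 at 6000. The shares at different depths, and those of the 2 libraries, thus rest on different parts of the cells.

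The clusters differed in co-detection. Cells with both kinds made up 58.7% of the Sfn-led cluster in AptCD4-LNT and 70.6% in Untreated, and 26.3% and 20.4% of the Lgals7-led cluster. In the Cenpf-led cluster, which is rich in dividing cells, it was 47.8% and 33.7%, and in the Mmp13-led cluster 49.1% and 32.5%. The Ndrg1-led cluster was, of the 6 compared, the only one besides the Sfn-led cluster with the higher share in Untreated, at 33.5% against 38.8%. In that cluster Krt17 was in 16.2% of AptCD4-LNT and 29.3% of Untreated cells, while Krt14 was in 22.8% and 19.1%.

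The 15 pairs of keratins were each compared with the product of the 2 single shares, which is what independent detection would give. Krt14 with Krt17 stood at 1.64 times the product in AptCD4-LNT and 1.81 times in Untreated. Krt17 with Krt19 stood at 1.75 and 1.52 times, and Krt14 with Krt19 at 1.35 and 1.31 times. Pairs that include Krt8 or Krt18 lay close to 1, since nearly every cell had both and the ratio cannot rise far. Of cells with Krt14, 18.7% in AptCD4-LNT and 33.1% in Untreated also had Krt17, against 7.96% and 14.1% of cells without Krt14. The ratio for Krt14 with Krt17 was above 1 inside every cluster with enough cells, from 1.26 to 1.72 in AptCD4-LNT and from 1.33 to 3.42 in Untreated.

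**Figure D2:**
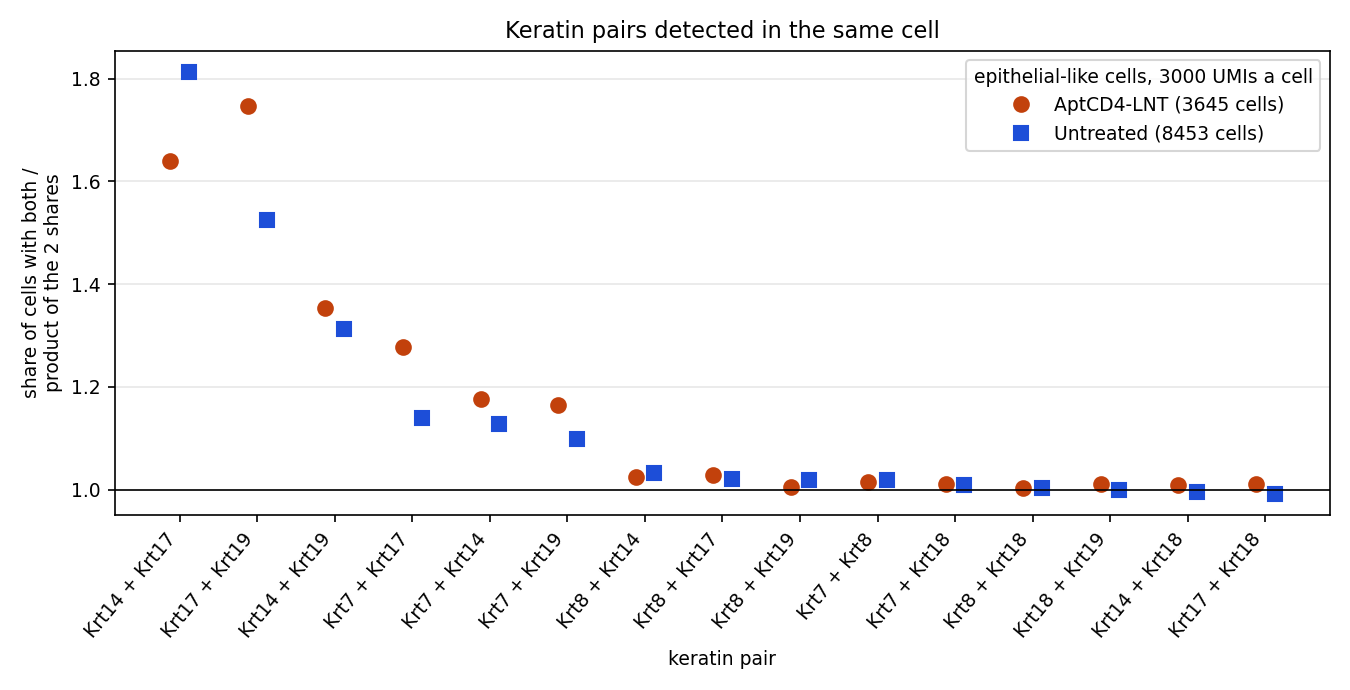
For each of the 15 keratin pairs, the share of epithelial-like cells with both keratins divided by the product of the 2 single shares, at 3000 UMIs a cell, with 1 point per library and a line at 1. Krt14 with Krt17 (1.64 and 1.81) and Krt17 with Krt19 (1.75 and 1.52) are highest, and the pairs with Krt8 or Krt18 lie near 1.

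Krt8 was higher in cells with more Krt14, and Krt18 differed less. Cells with no Krt14 had a mean of 3.87 Krt8 UMIs in AptCD4-LNT and 3.43 in Untreated, and cells with 5 or more Krt14 UMIs had 6.39 and 9.99. Krt18 went from 5.29 to 5.03 in AptCD4-LNT and from 4.83 to 6.28 in Untreated between the same cells. Krt7 went from 1.18 to 2.57 and from 1.46 to 3.12, and Krt17 from 0.130 to 1.09 and from 0.239 to 3.04. All counts are per 3000 UMIs, and the cells of 5 or more Krt14 UMIs number 124 and 205. The Sfn-led cluster held 25% and 25.4% of them, and the Cenpf-led cluster 35.5% and 35.1%. Cells with 5 or more Krt17 UMIs, 21 in AptCD4-LNT and 152 in Untreated, also had more Krt8, at 9.76 and 8.53 UMIs, and 52.6% of the Untreated ones lay in the Ndrg1-led cluster.

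**Figure D3:**
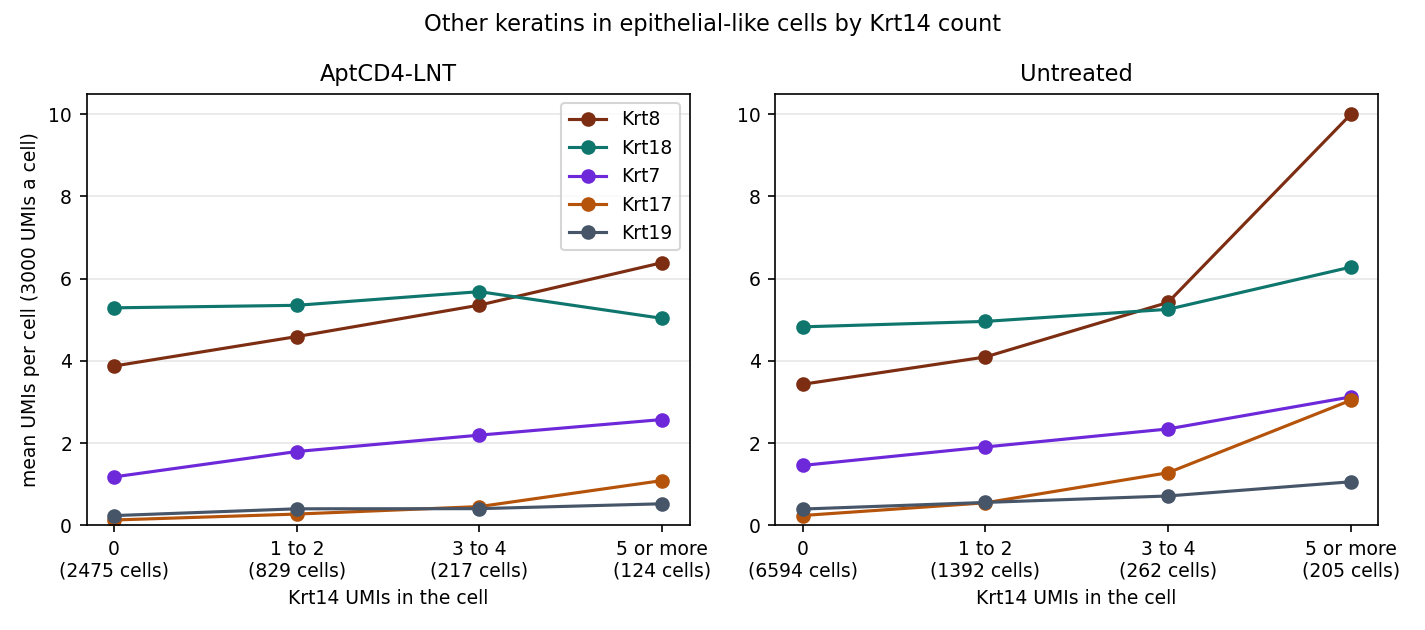
Mean UMIs per cell of 5 keratins in epithelial-like cells grouped by their Krt14 UMIs, at 3000 UMIs a cell, with 1 panel per library and the number of cells under each group. Krt8 goes from 3.87 to 6.39 in AptCD4-LNT and from 3.43 to 9.99 in Untreated, while Krt18 stays between 4.83 and 6.28.

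Counts of Krt14, Krt17 and Krt19 came from few cells. The 10% of cells with most of a keratin held 60.2% of Krt14 UMIs in AptCD4-LNT and 76.6% in Untreated, and 93.4% and 78.7% of Krt17 UMIs. For the simple keratin Krt19 the top 10% held 60.9% and 54.0%, for Krt18 22.6% and 22.8%, and for Krt8 24.6% and 27.0%. This share follows in part from how many cells have the keratin at all, which for Krt17 were 11.4% and 18.3%. For Krt19 they were 21.5% and 30.6%, and 56.8% and 51.2% without thinning. For Krt14 they were 32.1% and 22.0%, and 56.3% and 35.1% without thinning. The variance over the mean was 3.27 and 4.97 for Krt14 and 4.57 and 4.02 for Krt17, against 2.05 and 1.94 for Krt18 and 1.49 and 1.52 for Krt19. The highest single cell had 14 Krt14 UMIs in AptCD4-LNT and 30 in Untreated, with a median of 0 in both.

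Correlations of thinned counts over cells were weak throughout and are given as a description, with all points of a library sharing its depth and clusters. Krt8 with Krt18 gave Pearson's r of 0.315 in 3645 AptCD4-LNT cells and 0.308 in 8453 Untreated cells, Krt14 with Krt17 0.207 and 0.336, and Krt14 with Krt18 0.015 and 0.045. Among 4345 genes compared with each keratin, whose median r was near 0, the 5 most alike were listed by the lower r of the 2 libraries, after a second thinning. Krt8 and Krt18 were each other's first gene (0.312), followed for both by S100a6, a calcium-binding protein. For Krt14 the list was Crip1 (0.315), Sfn (0.302), Tagln2, Krt17 and S100a10, and for Krt17 it was Krt14 (0.219), Actg1, Crip1, Tnc and Sdc1. For Krt19 it was Lgals3 (0.240), Ndrg1, Ero1a, Pgk1 and Egln1, the last 4 of which are known hypoxia-induced genes. For Krt7 it was Epcam (0.258), Ly6a, Crip1, Ly6c1 and Mmp9.

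Genes that work with keratins differed between the libraries in parts of each list. Of the desmosome and linker genes, which anchor keratins to cell junctions, 12 of 14 had enough UMIs, and 3 were past 1.5-fold higher and 0 lower in AptCD4-LNT, with a median log2 of 0.32. The highest-level of the 3 was Plec, the plectin linker, at 231 against 133 CPM. Jup, plakoglobin, was at 194 and 197 CPM. Of 9 hemidesmosome and basal adhesion genes 0 passed in either direction (median log2 0.31), with Itgb4 at 118 and 95.7 CPM. Of 9 junction genes, 0 were higher and 3 lower (Cldn3, Cldn7, Crb3; median log2 -0.43). Epcam itself, at 768 and 1058 CPM, stayed under the threshold. Of the junction genes, Epcam, Cdh1, Cldn3, Cldn4 and Cldn7 were also among the markers that named the epithelial-like clusters. All-gene shares are those given above, 8.75% higher and 5.7% lower.

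Of 14 measured epithelial transcription factors 5 were higher and 1 lower (median log2 0.37). Klf4, a factor of epithelial differentiation, was at 207 and 110 CPM, and Elf3 was the lower one, at 16.4 and 25.1 CPM. Trp63, Ehf, Foxa1 and Ovol2 were also past 1.5-fold higher but at 5.21 CPM or less in AptCD4-LNT. Elf3 and Esrp1 of this list were also among the markers that named the epithelial-like clusters. Of 10 keratinocyte stress and cornification genes 4 were measured and 3 were higher (median log2 1.32), led by Lgals7 (galectin-7) at 79.6 and 20.1 CPM and Sfn (14-3-3 sigma) at 176 and 90.6 CPM. Lgals7 also leads the cluster that is more frequent in AptCD4-LNT. Among the other intermediate filament genes, Vim (vimentin, the filament of mesenchymal cells) was at 3544 and 2550 CPM, beside summed simple keratins of 3873 and 3687 CPM, and Lmna (lamin A and C of the nuclear lamina) at 1151 and 855 CPM. Neither passed 1.5-fold, and of the 7 measured genes of that list only Des passed, on the lower side and under 1 CPM. Of 4 measured mesenchymal regulators 1 was higher, Zeb1 at 4.19 and 2.70 CPM (median log2 0.48).

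Outside the epithelial-like cells keratin counts were low but not absent. Epithelial-like cells held 98.3% of the keratin UMIs of all kept cells in AptCD4-LNT and 97.0% in Untreated. The 8 other named classes of at least 50 cells per library had together 3.83% (3.71 to 3.96%) of the epithelial-like keratin level in AptCD4-LNT and 8.55% (8.37 to 8.73%) in Untreated. Doublet removal moved these values far more than counting error: they were 15.1% and 36.3% with no doublets removed and 2.58% and 4.70% with removal at the expected rate. With a marker gate per cell in place of clusters they were 4.90% and 3.81%, which turns the order of the libraries. The gate took as blood cells or fibroblasts only cells without an Epcam UMI. Cells with epithelial RNA were thus partly left out beforehand, and the gated values are not like for like with the others. Of the cells with at least 1000 UMIs, thinned to that number, 10.97% and 14.9% had any of the 6 keratins, against 94.1% and 93.5% of epithelial-like cells. The depth minimum left out 600 of 4749 and 2586 of 8379 cells, among them 384 of 2129 and 2001 of 2977 neutrophil-like cells, so the mixes of classes behind the 2 shares differ. A simple and a basal keratin in the same cell was seen in 0.313% and 0.725% of them, against 19.1% and 17.5%.

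Levels differed between classes. Macrophage-like cells, of which there were 936 and 2881, were at 2.98% and 4.14% of the epithelial-like level, monocyte-like cells at 2.63% and 4.43%, and neutrophil-like cells at 4.66% and 5.68%. Endothelial-like cells were at 4.12% and 6.75%, and dendritic cell-like cells at 1.96% and 7.73%. Fibroblast-like cells were at 3.22% in AptCD4-LNT and 16.8% in Untreated. T cell-like cells were at 15.6% and 20.9%, and pericyte-like cells, only 51 and 98 in number, at 13.4% and 30.7%. In AptCD4-LNT pericyte-like cells, 1 cell held 88 of the 108 Krt8 UMIs, and without it Krt8 went from 17.2% to 3.45% of the epithelial-like level. No order of the classes is read from these values, since it rests on few cells. Without cells of 3 or more keratin UMIs, pericyte-like and T cell-like cells of AptCD4-LNT were at 1.63% and 1.82%, below neutrophil-like (2.80%) and monocyte-like cells (2.26%). That order is not read either, since a fixed cut caps the level lower in deeper cells. The median depth was 7408 UMIs in pericyte-like and 1351 in neutrophil-like cells of AptCD4-LNT. The same cut left epithelial-like cells at 11.8% of their own level in AptCD4-LNT and 16.4% in Untreated.

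Over the 8 classes, few cells carried most of these counts. Cells with 3 or more keratin UMIs were 136 (2.86%) of the non-epithelial cells in AptCD4-LNT and 385 (4.59%) in Untreated, and held 59.8% and 75.02% of the keratin UMIs there. In T cell-like cells, 4 of 154 and 58 of 582 cells held 89.8% and 90.9%. In 4 of 8 classes of AptCD4-LNT and 2 of 8 of Untreated such cells held less than 50%, as in neutrophil-like (41.4% and 19.4%) and monocyte-like cells (14.9% and 42.5%). Without such cells the 8 classes came to 1.71% and 2.46% of the epithelial-like level, and fibroblast-like cells to 1.26% and 2.08%. This cut is on the measured counts themselves and was not made in the epithelial-like level, so the values are lower in part by the cut. Cells with 3 or more keratin UMIs were deeper, with a median of 14689.5 UMIs in AptCD4-LNT and 5893 in Untreated against 1685 and 1450.5 in cells with none. Epcam was found in 39.0% and 63.6% of them and in 5.88% and 6.60% of cells with no keratin. Their median doublet score was 0.06 and 0.25, against 0.04 and 0.08. Barcodes already removed as doublets had 3171 and 3089 CPM of the 6 keratins. The part of doublets and free RNA in these counts was not tested.

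**Figure D4:**
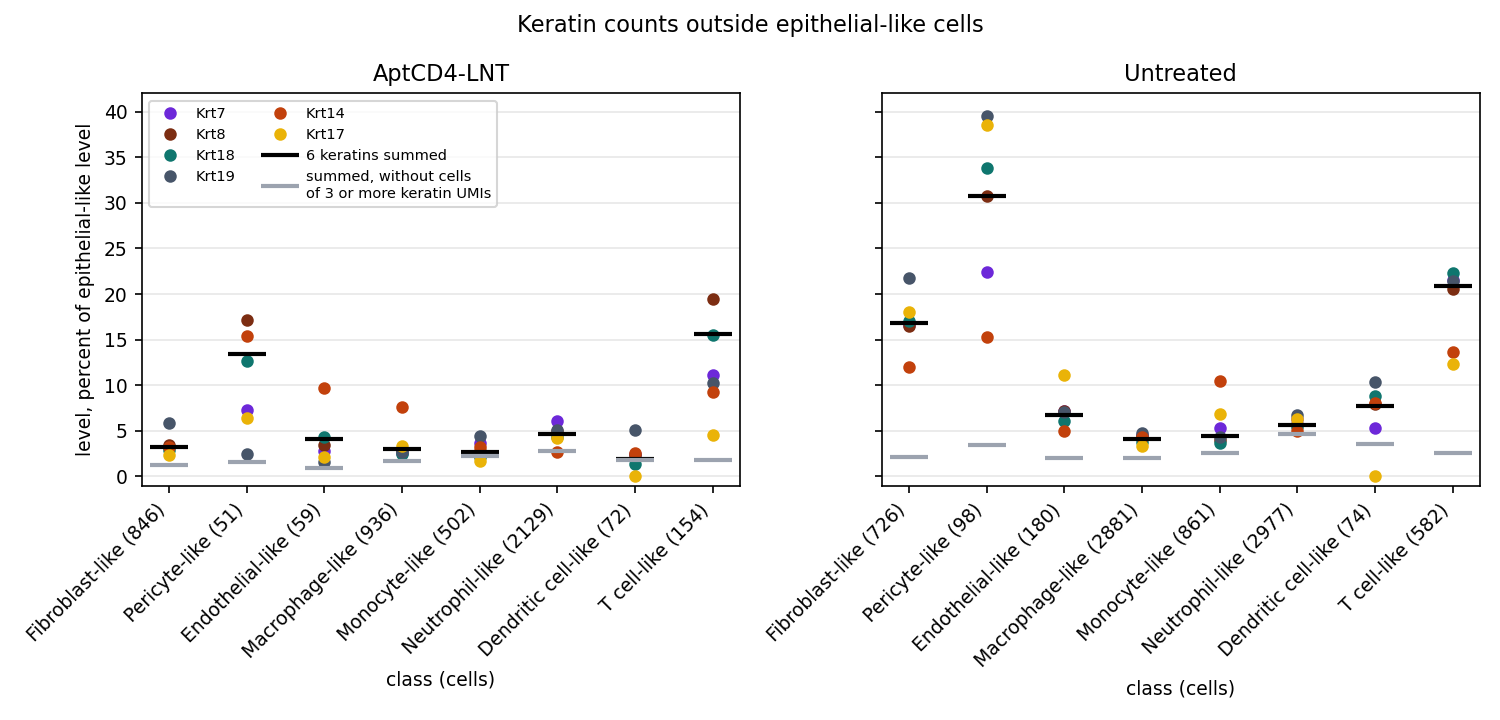
Level of each keratin (points) and of the 6 summed (black bars) in 8 non-epithelial classes, in percent of the epithelial-like level of the same library, with grey bars for the sum without cells of 3 or more keratin UMIs and the number of cells in brackets. The summed level runs from 1.96% to 15.6% in AptCD4-LNT and from 4.14% to 30.7% in Untreated, and the grey bars lie below 5% in every class. The grey bars leave out cells by the counts shown, so they lie lower in part by the cut itself.

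The make-up of the 6 keratins was also compared. Over the 8 classes, Krt18 made up 38.7% and 41.6% of keratin UMIs against 42.7% and 41.8% in epithelial-like cells, and Krt8 37.0% and 32.1% against 34.5% and 32.0%. Krt17 made up 1.29% and 3.45% against 1.72% and 3.52%, a lower share in AptCD4-LNT both inside and outside the epithelial-like cells. The 6 keratins stood at a median of 3.94% and 8.54% of their own epithelial-like level, and the 9 epithelial genes that are not keratins at 4.04% and 9.55%. These 9 genes also named the epithelial-like class, so their contrast with other classes was set in part by the naming. Epcam alone was at 4.04% and 8.70%. Within single classes, epithelial genes with few UMIs in the class were left out of their median, while keratins at 0 were kept. The 2 medians are therefore not of the same kind. In AptCD4-LNT they were 2.37% for the keratins and 24.4% for 4 epithelial genes in dendritic cell-like cells. They were 3.11% and 10.7% (4 genes) in endothelial-like, 10.7% and 19.4% (7 genes) in T cell-like and 4.63% and 8.24% (8 genes) in neutrophil-like cells. In Untreated, in the same order, they were 7.96% and 37.8% (4 genes), 7.12% and 8.06% (6 genes), 21.0% and 19.8% (9 genes), and 6.01% and 5.51% (7 genes). Among the genes left out in AptCD4-LNT dendritic cell-like cells, Cldn3 was at 2.73% and Cldn4 at 0%. Among the 4 kept for this class, Cdh1 was at 97.8% in AptCD4-LNT and 70.6% in Untreated, and Epcam at 7.95% and 29.9%. Whether these cells express Cdh1 themselves was not tested.

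The make-up differed for Krt14 in AptCD4-LNT macrophage-like cells, at 17.2% of their keratin UMIs against 6.76% in epithelial-like cells. A single cell with 33526 UMIs held 70 of the 118 Krt14 UMIs, along with 40 of Krt8 and 19 of Krt18, and had 1 UMI of Epcam and 0 of Ptprc. Without it Krt14 in this class went from 7.60% to 3.11% of the epithelial-like level. Likewise 1 cell held 17 of the 18 Krt14 UMIs of AptCD4-LNT endothelial-like cells, and 1 cell 25 of the 41 in Untreated monocyte-like cells.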

How the data were processed

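The deposited matrices hold whole-number UMI counts that were not normalised, per the file headers, made with Cell Ranger 7.2.0 on GRCm39, per the submitters' processing notes. They hold 8931 AptCD4-LNT barcodes with 98968100 UMIs and 20040 Untreated barcodes with 131295224 UMIs. Nothing upstream was rerun.

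A barcode had to show 200 genes and no more than 20% mitochondrial UMIs (78 and 39 failed), and Scrublet doublets were removed per library (226, 2.55%, and 1785, 8.92%). Counts were scaled to 10000 per cell and logged, and 2000 variable genes without keratins, 30 principal components and 15 neighbours gave 23 Leiden clusters at resolution 1. A cluster took the class whose markers led it, with at least 3 markers at 20 CPM. Class names thus rest on rebuilt clusters, and the naming rule was set with the clusters in view. An exception was a cluster of low depth led by haemoglobin genes (97 and 278 cells), with 6 of 9 epithelial markers at 20 CPM: clusters of very low depth with no marker among the 10 leading genes stayed unnamed. The epithelial-like clusters had no marker among their 10 leading genes either, but were deeper. Another 14 Untreated cells with at least 2% of UMIs from 7 muscle genes were left out.

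Levels are summed counts per 1000000 UMIs. Ratios are AptCD4-LNT over Untreated, with exact conditional binomial intervals, and shares have exact Clopper-Pearson intervals. The ratio intervals and the ranking of alike genes were checked on simulated counts. For the intervals these held counting error only, which the intervals assume, so other spread was not covered. Named genes are the 6 keratins, other keratins at 20 CPM or more, list examples, and the 5 genes most alike to each keratin among those with a mean of at least 0.1 thinned UMI. The members, lists and rules were chosen with earlier results of these data known. Alternatives changed doublet removal, cell filters, clustering, scaling and thinning depth. The analysis ran on scanpy 1.11.5 with igraph 0.11.9 for clustering, scipy 1.17.1 for intervals, and pandas 2.3.3, numpy 2.4.6 and matplotlib 3.10.9 under Python 3.11.15.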

Additional observations from a re-analysis of the deposited data

Results flagged for a closer look

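Krt14 differed between the libraries in opposite directions in 2 epithelial-like clusters. It was higher in AptCD4-LNT in the Mmp13-led cluster (log2 1.44, 240 against 88.1 CPM) and lower in the Sfn-led cluster (log2 -1.38, 654 against 1706 CPM). With 1 library per group, the difference between the clusters was not tested. The clusters held 398 and 268 AptCD4-LNT cells and 715 and 157 Untreated cells.

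Keratins were also counted in barcodes that the values of the report leave out, other than in alternative settings. The unnamed low-depth cluster, with a median of 1326 UMIs per cell in AptCD4-LNT and 1148 in Untreated, had 4746 and 3539 CPM of the 6 keratins, which is 112% and 88.1% of the epithelial-like level. Krt14 made up 11.5% of its keratin UMIs in AptCD4-LNT and 5.80% in Untreated. Epcam stood there at 86.9% and 81.3% of its epithelial-like level. Barcodes removed as doublets had 3171 CPM in AptCD4-LNT and 3089 CPM in Untreated, and 39.8% and 36.9% of them had both Ptprc and at least 3 keratin UMIs.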

How the results depend on the processing

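No paired analysis was possible because each group is 1 library. Leaving out a replicate was not possible for the same reason. Values below give AptCD4-LNT first and Untreated second.

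The keratin level outside epithelial-like cells depended most on doublet removal. It was 2.58% and 4.70% of the epithelial-like level with doublets removed at the rate expected from the barcode number, 15.1% and 36.3% with none removed, 4.90% and 3.81% with a marker gate per cell, 3.63% and 7.16% with keratins among the clustering genes, and 4.63% and 12.6% at Leiden resolution 2. A stricter cell filter gave 8.73% in Untreated. Leaving out cells of 3 or more keratin UMIs, chosen after seeing the data, gave 1.71% and 2.46%, in part by the cut on these counts itself. The higher value was in Untreated in each of these settings except the gate, whose non-epithelial cells were picked to have no Epcam UMI.

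Cells with any basal keratin were 19.7% and 18.3% at 1000 UMIs and 48.7% and 46.9% at 6000, and cells with a simple and a basal keratin 19.1% and 17.5%, and 48.7% and 46.9%. At least 2 UMIs of each gave 19.8% and 14.03%. With no doublets removed the Untreated shares were 34.6% for any basal and 34.5% for both. The minimum of 6000 UMIs left out 204 of 3754 and 3660 of 9516 epithelial-like cells, so the cells behind these shares differ.

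The log2 difference of the summed basal keratins was 0.0650 with expected-rate doublet removal, 0.0737 as a mean of per-cell CPM, 0.0599 scaled to the median gene and 0.0523 without the Mmp13-led cluster, and turned to -0.0290 with the gate and -0.17 with equal weight per cluster. That of the summed simple keratins was 0.0883 as a mean of per-cell CPM, 0.0187 scaled to the median gene and -0.0316 with equal weight per cluster, where Krt8 was at -0.0406. Equal weight and the left-out cluster were chosen after seeing the data. Krt19 was under 1.5-fold with the gate, as a mean of per-cell CPM and with equal weight per cluster. Genes past 1.5-fold were 1420 higher and 926 lower, 870 higher and 1094 lower with the gate, 1222 and 1065 scaled to the median gene, and 3734 higher and 2776 lower without the filter on low counts.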
